A study of Mus musculus with 8 samples.

Results

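The proteasome genes described here are those whose symbols on the array begin with Psma, Psmb, Psmc, Psmd, Psme, Psmf or Psmg followed by a digit, except the interferon-induced subunits Psmb8, Psmb9 and Psmb10. The rule took 58 probes for 39 gene symbols, out of 25697 probes and 18120 symbols on the array. By role they were 20 probes of the core particle (14 genes), 21 of the regulatory particle (15 genes), 9 of activators and an inhibitor (6 symbols), and 7 of base assembly chaperones (3 genes). The pattern also took 1 probe of Psmc3ip, a meiotic recombination factor that shares only the stem of its name with the subunit Psmc3, and it is counted in neither particle.

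The 26S proteasome is the protease that degrades most proteins tagged with ubiquitin. Its core particle is a barrel of stacked rings, in which alpha subunits form the outer gates and beta subunits the inner chamber, and Psmb5, Psmb6 and Psmb7 carry the active sites. The regulatory particle caps the barrel, with a base of Psmc ATPases that unfolds substrates and a lid that removes their ubiquitin. Neurons depend on this system, and inclusions of ubiquitinated protein are a known feature of Huntington's disease, which affects the striatum.

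The arrays hold RNA of STHdh cells, a neural progenitor line that was conditionally immortalized from mouse embryonic striatum, carries wild-type huntingtin (STHdhQ7) and was grown at the permissive temperature. One group of 4 arrays came from cells that received a pcDNA3.1 plasmid carrying the beta isoform of mouse Bcl11b, a zinc finger transcription factor of striatal neurons. The other group of 4 came from cells that received the same plasmid without insert, which are called mock here and which the sample labels also call wild-type, and all cells were harvested 2 days after transfection. The sets of cells were separate transfections of a single cell line, so the p-values measure the spread between transfected sets, and with 4 arrays per group the precision is limited. No array detected the single Bcl11b probe, which leaves the expression of the plasmid unmeasured here. Of the defining markers, those of striatal projection neurons were not detected (0 of 7 genes on the array), whereas 3 of 4 progenitor genes (Nes, Sox2 and Vim, not Pax6), 3 of 4 mesenchymal genes (Col1a1, Col3a1 and Pdgfrb, not Col1a2) and 1 of 3 general neuron genes (Map2, not Tubb3 or Snap25) were. Markers of astrocytes, oligodendrocytes, microglia and endothelium were not detected. Non-detection here refers to the array only, since the study reports PCR products of Ppp1r1b and other striatal markers from these cells.

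In the Bcl11b group, 1 array stood apart, and the mock arrays did not form a close group either. Across the 9360 probes detected on all 8 arrays, replicate 4 of the Bcl11b group was most like mock replicate 2 (Pearson's r = 0.981, across probes), and its closest array within its own group reached 0.935. The other Bcl11b arrays had a closest partner in their own group at 0.991 to 0.995. For mock arrays the closest partner within the group reached only 0.971 to 0.972. Mock replicate 1 was slightly closer to Bcl11b replicate 2 (0.972), and mock replicate 2 was closest to Bcl11b replicate 4. Before normalization the median signal was 31.6 to 53.9 on mock arrays and 20.1 to 30.2 on Bcl11b arrays. All values below are log2 of quantile-normalized signal unless stated. Some results that rest on replicate 4, mainly of the core particle, are also given without it.

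Among the proteasome probes, 52 of 58 were detected on at least 1 array at a detection p-value under 0.01, and 48 on all 8. Psma1 and Psma6, alpha subunits of the outer ring, had no detected probe, and 1 probe each of Psma3, Psmb2, Psmd5 and Psmd11 was not detected while another probe of the same gene was. Psma1 and Psma6 had only 1 probe each, which read 0 on all 8 arrays, so absence of their RNA cannot be inferred. None of the 58 probes passed an adjusted p-value of 0.10 (limma, Benjamini-Hochberg over all probes), where 252 of 25697 probes did (0.981%, and 1.67% of detected probes), and the smallest adjusted p-value of a detected member was 0.384. At an unadjusted p-value under 0.05, 4 of the 52 detected members passed (7.69%), 3 higher and 1 lower in Bcl11b-transfected cells, against 17.7% of all 11755 detected probes (5.16% higher and 12.5% lower). All 4 also passed the fold threshold of the study's methods, so 7.69% of detected members met both thresholds, against 14.8% of all detected probes. The groups overlapped for every detected member, whereas they did not overlap for 10.1% of detected probes. Over both directions together, the share of called members was thus below the background at each threshold. In RNA from whole cultures, a smaller share of cells of a type and less RNA per cell cannot be told apart.

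In these estimates the core particle probes leaned higher, while those of the regulatory particle lay near the median of all detected probes. In the core particle, 12 of 16 detected probes had a higher mean in Bcl11b-transfected cells (median log2 fold change 0.25). In the regulatory particle 8 of 20 did, with a median of -0.02. The median of all detected probes was -0.02. The difference between the particles was not tested. The regulatory particle varied less between arrays of a group. The median standard error of its log2 fold changes was 0.124, against 0.294 for the core and 0.20 for all detected probes.

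**Figure D1:**
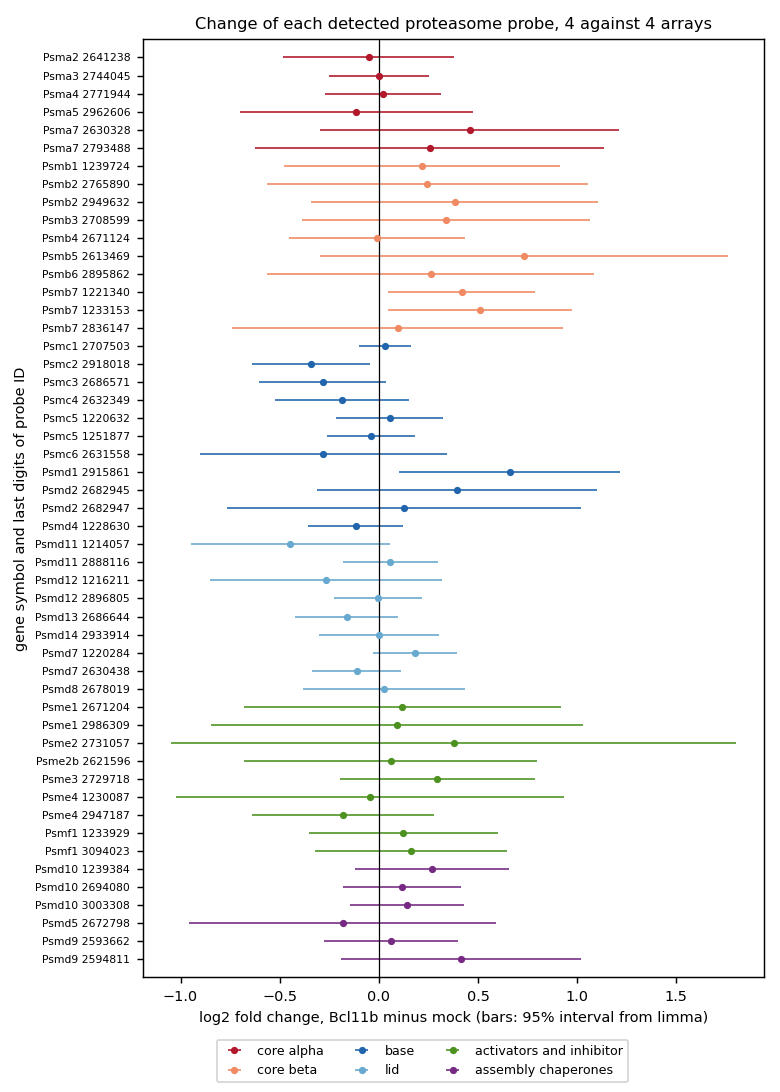
The log2 fold change (Bcl11b minus mock, 4 against 4 arrays, x axis) of each detected proteasome probe apart from Psmc3ip, with its 95% interval from limma as a bar and probes ordered by role. The intervals of 2 Psmb7 probes and of Psmd1 lie above 0, that of Psmc2 lies below 0, and all others cross 0.

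The sequences before the start sites of 4 genes are shown because these genes carry the results below: Psmb5 and Psmb6, catalytic subunits with low values on replicate 4, and Psmd1 and Psmc2, the regulatory particle genes with unadjusted p-values under 0.05. Psmb7, the core gene with unadjusted p-values under 0.05, had no window listed and is not shown. Each sequence is a window of 300 bases from RefSeq (GRCm38.p6), 250 before the start and 50 after it, 5′ to 3′ on the gene's strand. Psmb5 lies at chr14:54617946-54618245 (minus strand), Psmb6 at chr11:70525107-70525406 (plus), Psmd1 at chr1:86064369-86064668 (plus) and Psmc2 at chr5:21785025-21785324 (plus), the first of 2 windows listed for that gene. Capitals mark matches, on either strand, to TGACNNNGC, the letters of the antioxidant response element, and to CCAAT, the letters that NF-Y recognises.
Psmb5: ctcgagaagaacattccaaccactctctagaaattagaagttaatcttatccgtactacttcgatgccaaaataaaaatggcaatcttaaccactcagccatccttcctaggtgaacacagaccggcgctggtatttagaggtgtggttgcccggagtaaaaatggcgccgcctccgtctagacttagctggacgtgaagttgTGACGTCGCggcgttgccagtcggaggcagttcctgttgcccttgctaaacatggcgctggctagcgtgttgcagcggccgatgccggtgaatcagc
Psmb6: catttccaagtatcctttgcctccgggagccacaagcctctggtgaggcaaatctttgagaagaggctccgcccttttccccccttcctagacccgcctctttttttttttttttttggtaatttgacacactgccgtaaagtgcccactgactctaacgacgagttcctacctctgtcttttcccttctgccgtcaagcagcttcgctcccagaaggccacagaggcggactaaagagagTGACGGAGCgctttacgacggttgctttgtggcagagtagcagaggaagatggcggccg
Psmd1: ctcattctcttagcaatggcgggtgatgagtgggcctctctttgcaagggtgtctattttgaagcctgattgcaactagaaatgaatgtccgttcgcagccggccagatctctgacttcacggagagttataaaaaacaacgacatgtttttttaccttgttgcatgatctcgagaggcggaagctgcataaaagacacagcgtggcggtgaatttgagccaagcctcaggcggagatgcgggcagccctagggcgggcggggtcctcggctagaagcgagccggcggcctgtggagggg
Psmc2: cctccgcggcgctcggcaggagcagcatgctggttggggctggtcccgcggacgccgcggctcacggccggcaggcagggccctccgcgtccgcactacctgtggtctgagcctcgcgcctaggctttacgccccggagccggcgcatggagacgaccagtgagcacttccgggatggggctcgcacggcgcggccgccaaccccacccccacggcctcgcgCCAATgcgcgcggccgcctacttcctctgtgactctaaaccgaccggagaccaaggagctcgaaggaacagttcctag

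The TGACNNNGC letters began 47 bases before the start of Psmb5 and 9 bases before that of Psmb6, both on the gene's own strand, and CCAAT began 28 bases before the start of Psmc2. In these 4 windows the motifs did not overlap each other, and the Psmd1 window held neither. TGACNNNGC occurred in the windows of 2 of 11 core genes and 2 of 13 regulatory particle genes that the sequence table lists, and in 12.4% of all 32851 windows. Those 2 core genes were Psmb5 and Psmb6, the same ones shown above. CCAAT occurred in 6 of 11 core genes and 4 of 13 regulatory particle genes, and in 37.4% of all windows. A match describes letters and is not evidence of a bound site.

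The alpha ring of the core particle, which gates entry to the chamber, was detected through 6 probes of 5 genes, 3 higher and 3 lower, with a median log2 fold change of 0.01. None had an unadjusted p-value under 0.05. Psma7 had the largest difference, 0.46 ± 0.31 (SE, n = 4 per group, adjusted p = 0.742) by 1 probe and 0.26 ± 0.36 by its other probe. The first Psma7 probe read 11.88, 11.51, 11.71 and 11.07 on mock replicates 1 to 4 and 12.31, 12.13, 12.35 and 11.19 on Bcl11b replicates 1 to 4. Replicate 4 was the lowest array of both groups, and on Bcl11b replicate 4 the probe lay below 3 of the 4 mock arrays. Psma3 and Psma4 differed by 0.00 ± 0.10 and 0.02 ± 0.12, with 95% intervals of -0.25 to 0.25 and -0.27 to 0.31. Psma2 and Psma5 had slightly lower means, by -0.05 ± 0.18 and -0.11 ± 0.24. These small values depended on the scaling. After division of each array by its median, in place of quantile normalization, every detected alpha probe had a higher mean. Psma2, Psma3, Psma4 and Psma5 then differed by 0.51, 0.42, 0.29 and 0.39.

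The beta subunits line the chamber, and 9 of their 10 detected probes had a higher mean in Bcl11b-transfected cells, with a median log2 fold change of 0.30. Psmb7, which carries the trypsin-like activity, gave the 2 core probes with unadjusted p-values under 0.05. These were 2 of 16 detected core probes (12.5%, both higher), against 17.7% of all detected probes (5.16% higher). Probe ILMN_1221340 read 13.08, 13.00, 12.99 and 12.52 on the mock arrays and 13.37, 13.47, 13.37 and 13.04 on the Bcl11b arrays. Every Bcl11b array except replicate 4 lay above all mock arrays, and replicate 4 lay just below mock replicate 1. The log2 fold change was 0.42 ± 0.15 (95% interval 0.05 to 0.79, fold 1.33, adjusted p = 0.415 by limma).

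Psmb7 probe ILMN_1233153 read 12.70, 12.51, 12.43 and 11.91 on the mock arrays and 13.02, 12.98, 13.02 and 12.59 on the Bcl11b arrays. The order was alike, with replicate 4 of the Bcl11b group inside the mock range and its other arrays above it. The log2 fold change was 0.51 ± 0.19 (95% interval 0.05 to 0.98, adjusted p = 0.428). A further Psmb7 probe, ILMN_2836147, read 11.90, 10.96, 11.60 and 11.10 on the mock arrays and 11.84, 11.87, 11.56 and 10.66 on the Bcl11b arrays. Its groups overlapped throughout, and its log2 fold change was 0.09 ± 0.35 (95% interval -0.74 to 0.93), so the probes of this gene differed in size.

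Psmb5, the chymotrypsin-like subunit that proteasome inhibitor drugs bind, had the largest log2 fold change of all detected members, 0.73 ± 0.43, with an interval that crossed 0 (-0.30 to 1.76, adjusted p = 0.672). Its probe read 10.09, 9.92, 9.71 and 9.09 on the mock arrays and 10.76, 10.77, 10.91 and 9.29 on the Bcl11b arrays. The first 3 Bcl11b arrays lay above every mock array, while replicate 4 lay below 3 of the 4 mock arrays. Psmb6, the caspase-like subunit, read 12.88, 12.58, 12.72 and 11.81 on the mock arrays and 13.14, 12.92, 12.99 and 11.99 on the Bcl11b arrays. It showed the same arrangement with a log2 fold change of 0.26 ± 0.34 (adjusted p = 0.92). Without Bcl11b replicate 4 the log2 fold change was 1.12 for Psmb5 and 0.52 for Psmb6. Without mock replicate 4 it was 0.53 for Psmb5 and 0.03 for Psmb6.

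Of the structural beta subunits, Psmb1 differed by 0.22 ± 0.29, both detected Psmb2 probes by 0.24 ± 0.34 and 0.38 ± 0.30, and Psmb3 by 0.34 ± 0.30. Psmb3 read 13.34, 13.10, 13.32 and 12.62 on the mock arrays and 13.71, 13.69, 13.68 and 12.64 on the Bcl11b arrays, again with the other Bcl11b arrays above every mock array and replicate 4 near the lowest. Psmb4 was the exception among beta subunits, at -0.01 ± 0.18, but it differed by 0.42 after division by the array median. None of these had an unadjusted p-value under 0.05.

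The core probes shared a pattern across arrays that the labels do not name. Among probes detected on all 8 arrays, replicate 4 was the lowest array of both groups for 11 of 16 core probes (68.8%), against 14.8% of all 9360 such probes. Taken singly, it was the lowest mock array for 12 of 16 core probes (19.9% of all such probes) and the lowest Bcl11b array for 15 of 16 (30.5%). It was the lowest array of both groups for 8 of 10 beta and 3 of 6 alpha probes, and the lowest Bcl11b array for 10 of 10 and 5 of 6. In the regulatory particle it was the lowest of both groups for 2 of 19 probes, the lowest mock array for 3 and the lowest Bcl11b array for 8. As deviations from each probe's mean over the 8 arrays, the core median was 0.22, -0.16, 0.05 and -0.59 on mock replicates 1 to 4 and 0.39, 0.32, 0.31 and -0.54 on Bcl11b replicates 1 to 4. The regulatory particle medians stayed between -0.13 and 0.11 on the same arrays. On both replicate 4 arrays, the median over all 9360 probes was 0.08 (mock) and 0.04 (Bcl11b). Nothing in the labels ties the arrays with the number 4 to each other, and what set them apart was not tested.

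**Figure D2:**
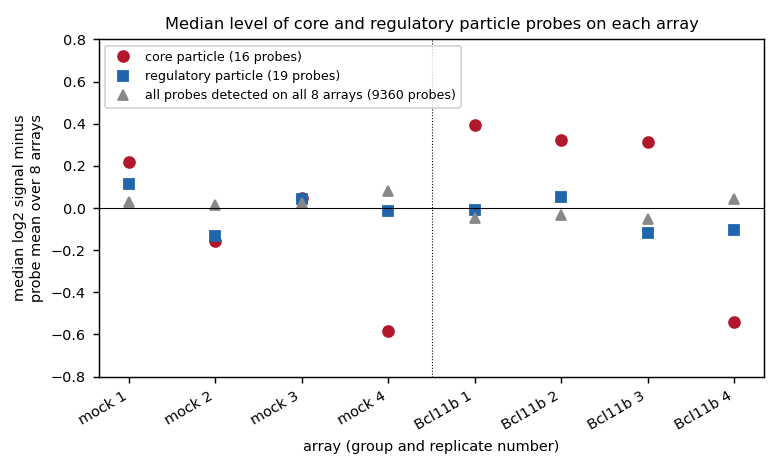
Median deviation from each probe's mean over 8 arrays (log2, y axis) for core particle and regulatory particle probes and for all probes detected on all 8 arrays, by array (x axis). The core median falls to -0.59 on mock replicate 4 and -0.54 on Bcl11b replicate 4, whereas the regulatory particle stays between -0.13 and 0.11.

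**Figure D3:**
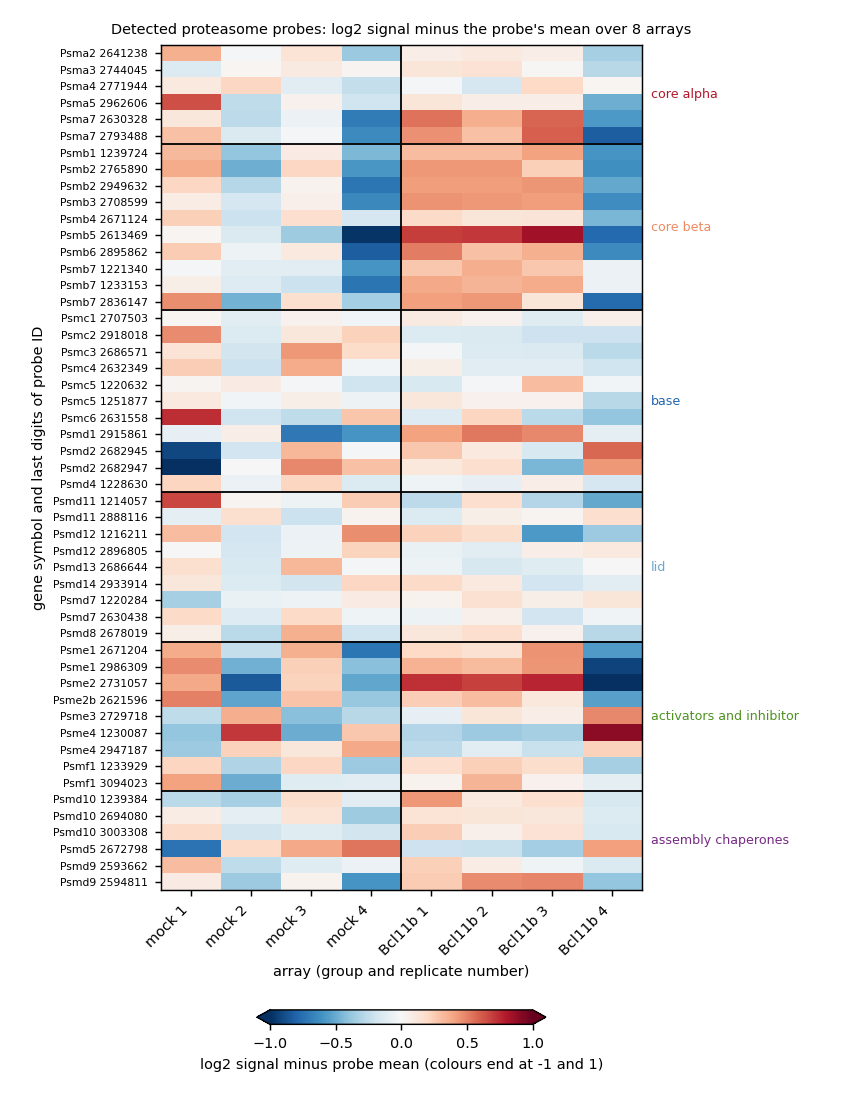
Log2 signal minus the probe's own mean over 8 arrays (colour, ending at -1 and 1) for each detected proteasome probe except Psmc3ip (rows, by role) on each array (columns). Most core beta rows are blue on replicate 4 of both groups and red on Bcl11b replicates 1 to 3, and the base and lid rows are pale on most arrays.

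Leaving out both replicate 4 arrays, a choice made after this pattern was seen, 8 of 16 core probes had an unadjusted p-value under 0.05. All 8 were higher in Bcl11b-transfected cells. Of all detected probes in that fit, 17.4% passed in either direction. The arrays were left out because core probes were low on them, so the core count cannot be read against that share. The 8 core probes were both Psma7 probes, 1 Psmb2 probe, Psmb3, Psmb5, Psmb6 and 2 Psmb7 probes, with log2 fold changes from 0.29 (Psmb6) to 0.92 (Psmb5). The core median was then 0.34, and Psmd1 of the regulatory particle differed by 0.73 and Psmc2 by -0.32 on the log2 scale. No member passed the adjusted threshold in that fit either, where the smallest adjusted p-value of a member was 0.116 (Psmb7). Leaving out Bcl11b replicate 4 alone gave 6 of 16 core probes, where 22.4% of all detected probes were under 0.05. Leaving out Bcl11b replicate 1, 2 or 3 gave 0, where 13.2%, 14.9% and 11.7% of all detected probes were. The count of core probes thus depended on which arrays were included.

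In the whole regulatory particle, 2 of 20 detected probes had an unadjusted p-value under 0.05 (10%, 1 higher and 1 lower), against 17.7% of all detected probes. In its base, 11 probes were detected, 5 higher and 6 lower, with a median log2 fold change of -0.04. Psmd1, the large scaffold subunit of the base, was higher with a log2 fold change of 0.66 ± 0.23 (95% interval 0.10 to 1.22, fold 1.58, adjusted p = 0.384). It read 10.47, 10.62, 9.84 and 9.96 on the mock arrays and 10.95, 11.08, 11.03 and 10.45 on the Bcl11b arrays. The first 3 Bcl11b arrays lay above all mock arrays and replicate 4 lay within the mock range. The other scaffold, Psmd2, differed by 0.39 ± 0.29 and 0.13 ± 0.37 with its 2 probes.

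The ATPase Psmc2 was the member with a lower mean and an unadjusted p-value under 0.05. Its probe read 14.22, 13.61, 13.86 and 13.97 on the mock arrays and 13.61, 13.60, 13.54 and 13.54 on the Bcl11b arrays. The Bcl11b arrays lay close together (SD 0.04, against 0.25 for mock), and only mock replicate 2 came down to their level. The log2 fold change was -0.34 ± 0.12 (95% interval -0.64 to -0.04, fold 0.789, adjusted p = 0.401). After division of each array by its median, in place of quantile normalization, it was 0.14.

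Of the other ATPases, Psmc3 differed by -0.28 ± 0.13, Psmc4 by -0.19 ± 0.14 and Psmc6 by -0.28 ± 0.26. Psmc1 had the smallest standard error, at 0.03 ± 0.05 with a 95% interval of -0.10 to 0.16. The Psmc5 probes lay on either side of 0, at 0.06 ± 0.11 and -0.04 ± 0.09. The ubiquitin receptor Psmd4 differed by -0.12 ± 0.10. None of these had an unadjusted p-value under 0.05.

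In the lid, 9 probes were detected, 3 higher and 6 lower, and none had an unadjusted p-value under 0.05. Psmd11, a scaffold subunit of the lid, gave the lowest log2 fold change of all detected members, -0.45 ± 0.21 (95% interval -0.95 to 0.06, adjusted p = 0.552). That probe read 9.89, 9.25, 9.17 and 9.48 on the mock arrays and 8.97, 9.40, 8.94 and 8.71 on the Bcl11b arrays. Bcl11b replicate 2 lay within the mock range and the other Bcl11b arrays below it, and a second Psmd11 probe differed by 0.06 ± 0.10. Psmd14, the enzyme that removes ubiquitin chains from substrates, differed by 0.00 ± 0.13 (95% interval -0.30 to 0.30). The probes of Psmd7, its partner in the lid, gave 0.18 ± 0.09 and -0.11 ± 0.09, opposite signs. After division by the array median these Psmd7 probes gave 0.35 and 0.08. The first then had an adjusted p-value of 0.161 by limma, the smallest of any member in that fit. Psmd8, Psmd12 and Psmd13 lay between -0.27 and 0.03.

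The activators open the core by other caps than the regulatory particle, and Psmf1 inhibits it. Of their 9 detected probes 7 had a higher and 2 a lower mean, with a median of 0.12, and none had an unadjusted p-value under 0.05. Psme3, the nuclear activator, had the smallest p-value of the group, with a log2 fold change of 0.29 ± 0.20 (adjusted p = 0.748). It read 12.14, 12.76, 11.98 and 12.13 on the mock arrays and 12.32, 12.52, 12.46 and 12.88 on the Bcl11b arrays. Mock replicate 2 lay among the Bcl11b arrays and the other mock arrays lay below them. For the interferon-inducible activators Psme1 and Psme2, replicate 4 was the lowest Bcl11b array, as in the core. A Psme1 probe read 10.65, 9.70, 10.41 and 9.76 on the mock arrays and 10.52, 10.49, 10.61 and 9.25 on the Bcl11b arrays. Psme2, detected on 3 of the 4 Bcl11b arrays, read 7.81, 6.60, 7.66 and 6.92 on the mock arrays and 8.16, 8.12, 8.20 and 6.02 on the Bcl11b arrays. In both, mock replicates 2 and 4 were low as well, with replicate 2 the lower in these probes, and the remaining arrays were high. The Psme4 probe detected on all 8 arrays ran differently, with 11.80, 12.39, 12.28 and 12.54 on the mock arrays and 11.90, 12.06, 11.94 and 12.39 on the Bcl11b arrays, so replicate 4 was the highest of both groups.

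The assembly chaperones on the array under their own symbols serve the base. Of their 6 detected probes 5 had a higher mean, with a median of 0.13, and none had an unadjusted p-value under 0.05. Psmd10 (gankyrin) had log2 fold changes of 0.27 ± 0.16, 0.12 ± 0.12 and 0.14 ± 0.12 with its 3 probes. The first of these read 8.34, 8.28, 8.78 and 8.49 on the mock arrays and 9.04, 8.70, 8.78 and 8.45 on the Bcl11b arrays, and its groups overlapped (adjusted p = 0.684). Psmd9 differed by 0.06 ± 0.14 and 0.41 ± 0.25, and Psmd5 by -0.18 ± 0.32. Psmc3ip, outside the proteasome, differed by 0.18 ± 0.29.

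Several genes of the complex are listed under older symbols, or fall outside the rule, and they are given as context. Of 8 further subunits and chaperones, 4 were found on the array and detected, the lid subunit Psmd6 and the core chaperones Psmg1, Psmg2 and Psmg3, and none had an unadjusted p-value under 0.05. Psmg3, which helps to form the alpha ring, differed by 0.61 ± 0.42, and read 10.09, 9.58, 9.63 and 8.86 on the mock arrays and 10.62, 10.26, 10.59 and 9.12 on the Bcl11b arrays. As in the beta subunits, replicate 4 was the lowest array of both groups. Of the interferon-induced subunits, Psmb8 and Psmb9 were not detected on any array. Psmb10 differed by 0.24 ± 0.65, and its probe ILMN_2914843 read 9.63, 8.43, 9.60 and 7.97 on the mock arrays and 9.66, 9.54, 9.80 and 7.60 on the Bcl11b arrays.

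Of 6 detected transcription regulators of proteasome genes, counted by the brightest probe of each, 1 was higher at an unadjusted p-value under 0.05 and 0 were lower, against 17.7% of all detected probes in either direction. It was the NF-Y subunit Nfya, with a log2 fold change of 0.92 ± 0.35 (adjusted p = 0.428), detected on 2 mock and 4 Bcl11b arrays. Nfe2l1, the factor that induces proteasome genes when the protease is inhibited, differed by -0.26 ± 0.11. None of these regulators, nor of the further subunits and chaperones, passed the adjusted threshold.

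The signs of the medians depended on the scaling. After division by the array median, the core median was 0.48 with 16 of 16 probes higher, and the regulatory particle median was 0.13 with 16 higher and 4 lower, while the median over all detected probes was 0.01. Without normalization all detected probes had a median of -0.68, and relative to it the core median was 0.46 and the regulatory particle median 0.12. These last values equal those after division by the array median by construction, since the scalings differ by a constant per array. Relative to all detected probes, the core median was thus 0.27 after quantile normalization and 0.46 after the other scalings, and the regulatory particle median was -0.01 and 0.12. In each case the difference between the particles was not tested.

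**Figure D4:**
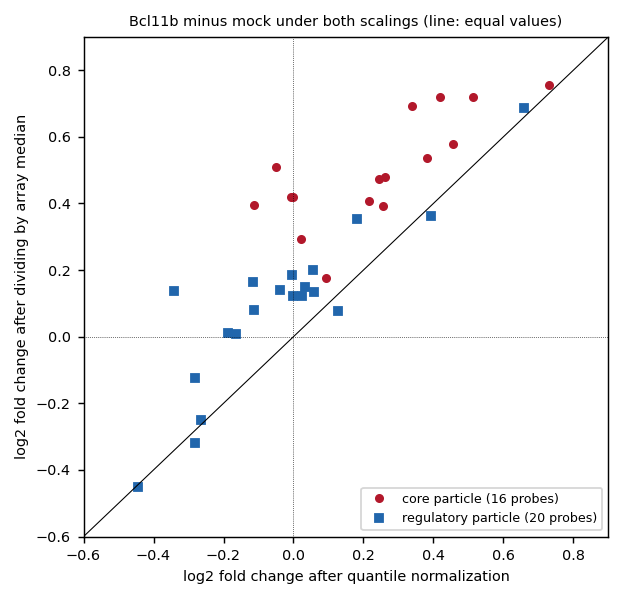
Log2 fold change (Bcl11b minus mock) of each detected core (circles) and regulatory particle (squares) probe after quantile normalization (x axis) and after division by the array median (y axis), with a line of equal values. All core probes lie above 0 on the y axis, 12 of 16 do so on the x axis, and most regulatory particle probes shift upward.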

How the data were processed

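RNA of 4 Bcl11b-transfected and 4 mock-transfected sets of STHdh cells was hybridized to Illumina MouseRef-8 v2 arrays and scanned. The authors deposited 1 intensity per probe from GenomeStudio (named in the submitters' processing notes), background-subtracted and not normalized between arrays. The deposited detection p-value of each probe compares it with negative control beads, and probes under 0.01 on at least 1 array are called detected. Following the study's methods, intensities were quantile-normalized and compared with limma (version 3.58.1, R 4.3.3, lmFit and eBayes) without covariates and with Benjamini-Hochberg adjustment over 25697 probes. Signals under 1 after normalization were set to 1 before log2. The procedure was tested on simulated data. Fold changes are Bcl11b minus mock, with SE, and n = 4 arrays per group. No pair of arrays was identical.

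The study's thresholds were kept (adjusted p-value 0.10, unadjusted p-value 0.05 with a minimum fold change). Values on all arrays were given for the 3 core and 3 regulatory particle probes and the 1 activator and 1 chaperone probe with the smallest p-values. Psmb5, Psmb6 and Psmb7 and other members under 0.05 were named as well, and Psma7, Psmb3, Psme1, Psme2, Psme4, Psmg3 and Psmb10 were shown after their values were seen. A listed gene with several probes was counted by its brightest probe. The members and lists were chosen with earlier results of these data known. Older symbols and promoter windows came from RefSeq tables of GRCm38.p6. The windows of the table list 11 of 14 core and 13 of 15 regulatory particle genes.

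Results were recomputed with neqc, with signals divided by each array's median, without normalization, with 16 added before log2, with a filter on detection on at least 4 arrays, with limma-trend and robust eBayes, with a block for the replicate number, and without each array in turn. Leaving out replicate 4 of both groups was added after the data were seen. The study's ChIP experiments were not analysed here. Lists of proteasome partners and of ubiquitin genes are not reported here.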

Additional observations from a re-analysis of the deposited data

Results flagged for a closer look

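In groups of 4 arrays, an array was singled out when it lay far from the other 3 relative to the range of its group, a measure that flags about 1 in 20 groups by chance. Of 32 groups examined, 7 held such an array, always at the low end, and in 6 of them it was Bcl11b replicate 4. Psmb7 read 12.52 on mock replicate 4 by probe ILMN_1221340. By probe ILMN_1233153 it read 12.59 on Bcl11b replicate 4. Psmb5 read 9.29 on Bcl11b replicate 4. The median deviation on Bcl11b replicate 4 was -0.54 for the core particle, -0.41 for its alpha subunits, -0.60 for its beta subunits and -0.44 for the activators and inhibitor. These medians share probes and the same array, so they are not separate occurrences. Their cause was not tested.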

How the results depend on the processing

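No proteasome member passed the adjusted threshold under any alternative. Where not named, counts and medians stayed within 1.5 times or within the replicate spread of the values reported. Over all probes, 252 passed the adjusted threshold, against 57 without normalization, 413 with neqc, 45 with limma-trend and robust eBayes, and 87 to 637 when each array was left out in turn (87 without Bcl11b replicate 1, 637 without mock replicate 2). Without normalization 1 core and 6 regulatory particle probes had an unadjusted p-value under 0.05, where 48.7% of all detected probes did, and the medians were -0.22 and -0.57. The median of all detected probes was then -0.68, and the log2 fold changes of Psmd1 (-0.0090), Psme3 (-0.24), Psmd10 (-0.44), Psmb6 (-0.22) and the third Psmb7 probe (-0.52) fell below 0, while relative to that median they were 0.68, 0.45, 0.25, 0.47 and 0.16. Division by the array median turned the regulatory particle median to 0.13 and Psmc2 to 0.14. The 2 regulatory particle probes with an unadjusted p-value under 0.05 were then Psmd1 and a Psmd7 probe, both higher. Psme3 also passed in that fit, where 19.1% of all detected probes did. Leaving out each array gave 0 to 6 core probes and 0 to 4 regulatory particle probes with an unadjusted p-value under 0.05. In those fits 11.7% to 23.7% of all detected probes passed. The regulatory particle count was 0 without mock replicate 3 or without Bcl11b replicate 1 or 3. It was 4 without mock replicate 2, where 23.7% of all detected probes passed. Core medians were 0.09 to 0.50 and regulatory particle medians -0.07 to -0.02. The third Psmb7 probe ranged from -0.049 to 0.37 when each array was left out (-0.049 without mock replicate 2, -0.0018 without mock replicate 4, -0.03 without Bcl11b replicate 1 and -0.03 without Bcl11b replicate 2). Leaving out replicate 4 of both groups, added after the data were seen, gave 95 probes past the adjusted threshold and medians of 0.34 and 0.02. In that fit 8 core and 1 regulatory particle probes had an unadjusted p-value under 0.05, as did 17.4% of all detected probes. The arrays were left out for their low core values, so the core count cannot be read against that share. With the replicate number as a block, 45 probes passed the adjusted threshold and 7 core probes, all higher, and 1 regulatory particle probe had an unadjusted p-value under 0.05, where 19% of all detected probes did, and Psmc2 no longer passed. Psmc2 also failed to pass without mock replicate 3 or 4, or without any single Bcl11b array. Psmd1 did not pass without mock replicate 3 or 4, or without Bcl11b replicate 1, 2 or 3. The labels do not say whether the numbers pair the arrays. Same-numbered arrays deviated from their group means with correlations of 0.68, -0.63, 0.18 and 0.70 across probes, which cannot settle whether they were paired. The cause of these differences was not tested. Signals near background limit the Psmd2, Psme2, Psme4 and Psmf1 probes that were not detected on all 8 arrays.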
